A study of Mus musculus with 9 samples.

Results

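Rad21 sites that were called in CD4-CD8- double-negative (DN) thymocytes and not in pre-B cells were described. Overlapping peaks (1 bp or more) of the 3 Rad21 lists were merged on chromosomes 1 to 19, and a site was kept when it held a DN peak and no pre-B peak. This gave 572 sites, 6.02% of the 9495 DN sites and a small part of the 45491 merged Rad21 sites. Of these, 140 held a DN peak alone (DN only) and 432 also held a peak of CD4+CD8+ double-positive (DP) thymocytes (DN and DP). The sites were therefore selected on the measured peak calls, and the presence or absence of Rad21 peaks in them is a description. The other 8923 DN sites held a pre-B peak and serve as the comparison, here called shared DN sites. Of these, 8546 also held a DP peak and 377 did not.

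Every mouse was C57BL/6 and lacked RAG1 or, as worded for the pre-B cells, RAG, so that no antigen receptor gene was rearranged by the cells themselves. DN thymocytes came from Rag1-/- mice, DP thymocytes from Rag1-/- mice with a TCRβ transgene, and pre-B cells from RAG-/- mice with a rearranged IgM transgene. Thymocyte donors were 4 to 8 weeks old and bone marrow donors 6 to 14 weeks old. CTCF was measured in the pre-B cells and in RAG1-/- pro-B cells after 7 days of culture with IL7. CTCF in thymocytes was not analysed here. Both CTCF lists are from B-lineage cells, so a site described below as with or without CTCF is one with or without a peak in those lists. Whether such a site binds CTCF in thymocytes cannot be read from them. There was 1 library per antibody and cell type, so no test between cell types was possible, and the intervals given are exact Clopper-Pearson 95% intervals that cover counting error over sites only. The lists differed in length, with 9701 Rad21 peaks in DN, 36743 in DP and 30488 in pre-B cells. They also ended at different scores, the lowest being 86.45 in DN and 59.74 in pre-B cells. A site without a pre-B peak is one that was not called there, which does not make it unbound. Sequencing depth is unknown for all 5 lists, and how near an uncalled site lay to the pre-B limit cannot be read from them.

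Cohesin is a ring-shaped complex that encircles DNA and extrudes loops, and Rad21 is the subunit that closes the ring. CTCF is a zinc finger protein that binds a long DNA motif and halts loop extrusion, so that most strong cohesin sites in mammalian cells lie on CTCF sites. Cohesin is also found at active enhancers and promoters without CTCF. DN thymocytes rearrange the TCRβ, TCRγ and TCRδ genes, and DP thymocytes rearrange TCRα.

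Sequences of 3 sites that overlapped a CTCF peak are printed because they hold a match to the de novo CTCF consensus, a motif of 12 bases taken from the list of motifs that came with the data. The capitals mark the best match, the bases are from the plus strand of mm9, and the match had 1 mismatch at Adra1b and 2 at the others. They are the DN-only site with the highest DN score, at the promoter of Adra1b (chr11:43650018-43650117), the site at the start of Tox (chr4:6918305-6918404), and the 5′PC site upstream of the Dβ segments of TCRβ (chr6:41455496-41455595).
Adra1b: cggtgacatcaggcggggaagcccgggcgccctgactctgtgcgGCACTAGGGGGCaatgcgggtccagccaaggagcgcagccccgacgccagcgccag
Tox: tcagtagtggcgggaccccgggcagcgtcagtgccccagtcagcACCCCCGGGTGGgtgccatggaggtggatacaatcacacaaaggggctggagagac
5′PC: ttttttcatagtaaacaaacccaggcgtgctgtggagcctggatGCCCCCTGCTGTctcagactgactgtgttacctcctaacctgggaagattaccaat

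A further 3 sites had no CTCF peak and are printed for the kinds of sequence they held. The site near Scel (chr14:103863599-103863698) ranked second by DN score among the DN and DP sites and lay in a repeat with a unit of 4 bases. The site in an intron of Bach2 (chr4:32605967-32606066) also lay in such a repeat. Capitals mark the longest stretch, 62 and 66 bases, in which each base repeats the base 4 positions before. The site near Gata3 (chr2:9749392-9749591) held 2 E-box words, in capitals, and was chosen after its values were seen.
Scel: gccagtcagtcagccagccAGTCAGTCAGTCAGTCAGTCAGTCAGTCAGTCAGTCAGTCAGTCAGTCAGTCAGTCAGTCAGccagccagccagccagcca
Bach2: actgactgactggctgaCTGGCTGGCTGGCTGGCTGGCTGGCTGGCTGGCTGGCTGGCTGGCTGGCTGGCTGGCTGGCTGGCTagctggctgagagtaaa
Gata3: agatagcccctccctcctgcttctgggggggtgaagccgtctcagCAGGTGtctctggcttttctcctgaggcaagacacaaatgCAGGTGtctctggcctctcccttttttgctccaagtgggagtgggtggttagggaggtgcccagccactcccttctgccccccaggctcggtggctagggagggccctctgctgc

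The DN sites without a pre-B peak lay mostly in the lower part of the DN list. Scores were turned into the percentage of peaks of the same list that scored lower, since MACS scores grow with depth and were not compared between lists. The median DN rank was 22.2% for DN-only sites (quartiles 8.00% and 37.8%) and 27.3% for DN and DP sites (12.3% and 45.9%), beside 52.5% for shared DN sites. Sites without a pre-B peak made up 13.9% of the lowest 10% of the DN list, 130 of 937 sites, and 0.725% of the highest, 7 of 965. None of those 7 was DN only, and only 13 of the 140 DN-only sites were in the upper 50% of the list. DN peaks were 340 bp wide at the median in DN-only sites, 420 bp in DN and DP sites and 436 bp in shared DN sites. At the lower end of the list, the lowest scores were 86.47 and 86.56. The first was at a DN-only site in an intron of Cenpp. The second was at a DN and DP site 470556 bp from the nearest start of a protein-coding gene, that of Myc.

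**Figure D1:**
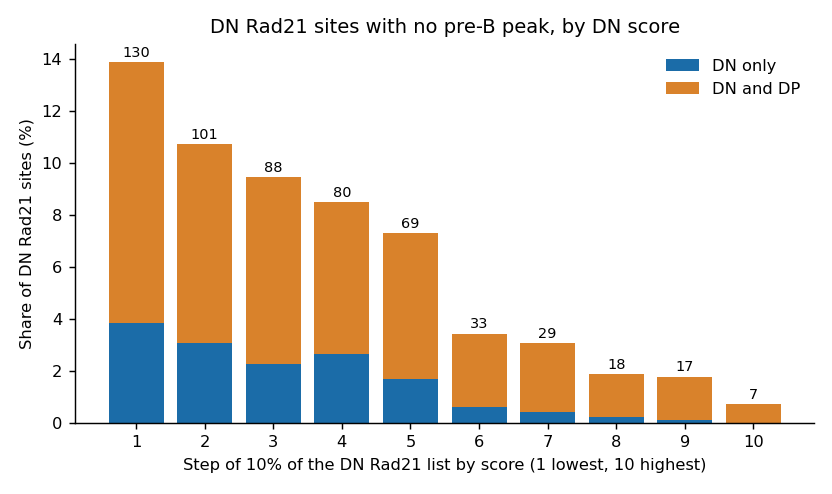
Share of DN Rad21 sites (y axis, %) that held no pre-B Rad21 peak, in 10 equal steps of the DN list by score (x axis, 1 lowest). Bars are stacked for DN only and for DN and DP, and the number above each bar is the count of both, which fell from 130 sites in the lowest step to 7 in the highest.

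In the DP list as deposited the DN and DP sites ranked higher. The median DP rank of the 432 DN and DP sites was 67.6% (quartiles 44.3% and 84.4%), above the 51.0% of sites held by DP and pre-B cells and the 31.5% of DP-only sites, and below the 84.8% of sites held by all 3. These classes were set by the same peak calls, and the DN list is the shortest. The order of the classes in DP rank is therefore a description. The DP rank was above the DN rank in 375 of the 432 sites (86.8%). That share was 86.2% in sites held by all 3, and the DP list is longer and reaches lower scores, so a site common to both lists tends to rank higher in DP. With Rad21 lists of equal length, 1189 sites were DN and DP without a pre-B peak, and the median rank over this larger set was 42.9% in the shortened DP list and 41.0% in DN. The 2 ranks were only loosely related, with Spearman's rho of 0.32 across the 432 sites and 0.55 across the 8546 sites held by all 3. These points share the same 2 libraries. Sites in the lower 50% of DN and the upper 50% of DP numbered 229, those high in both 70, those low in both 112, and those high in DN and low in DP 21.

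**Figure D2:**
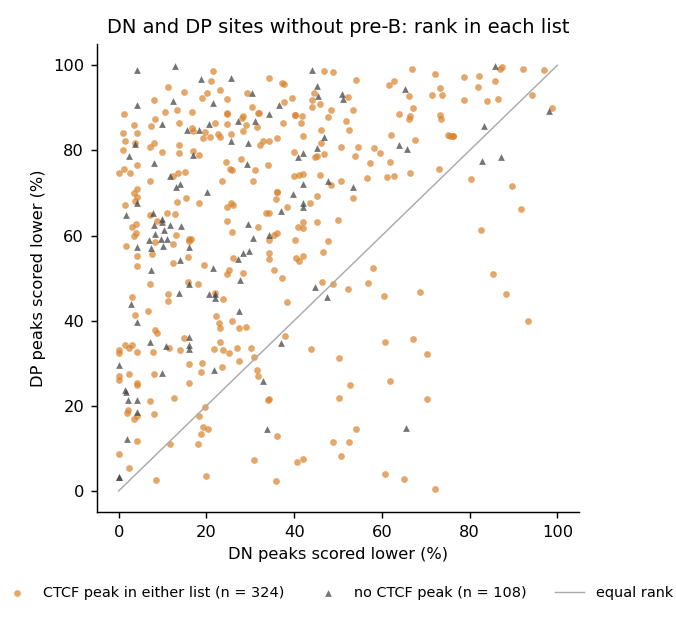
Each point is 1 of the 432 DN and DP sites without a pre-B peak, placed by the percentage of DN peaks (x axis) and of DP peaks (y axis) that scored lower. Most points (375 of 432) lie above the line of equal rank, both for the 324 sites with a CTCF peak and for the 108 without.

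CTCF overlap was lower than at shared DN sites. A CTCF peak in either list lay at 116 of the 140 DN-only sites (82.9%, interval 75.6% to 88.7%) and at 324 of the 432 DN and DP sites (75%, 70.6% to 79.0%). The share was 99.9% at shared DN sites, 8912 of 8923, and 72.7% over all merged Rad21 sites. With the CTCF peaks of pre-B cells alone, the cells in which Rad21 was not called, the shares were 50.7% (42.1% to 59.3%) for DN only, 43.3% (38.6% to 48.1%) for DN and DP and 99.4% for shared DN sites. Thus 258 of the 572 sites held a CTCF peak in pre-B cells without a Rad21 peak there. The classes were split by Rad21 calls in the same pre-B cells, so the gap in pre-B CTCF shares is not independent of the rule. A CTCF peak in IL7-cultured pro-B cells and not in pre-B cells lay at 182 sites (31.8%), and the reverse at 2. The IL7 list is the longer, with 71080 peaks beside 42250, and with its 42250 highest-scoring peaks only, the share in either list was 70.0% for DN only and 59.3% for DN and DP. With Rad21 lists of equal length, which leave more DN sites without a pre-B peak, the share with a CTCF peak in pre-B cells was 87.3% for DN only and 89.8% for DN and DP, beside 100% for shared DN sites.

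The CTCF peaks at these sites ranked lower in both CTCF lists than those at shared DN sites. In pre-B cells their median rank was 29.7% at DN-only sites and 34.2% at DN and DP sites, beside 81.7% at shared DN sites. In IL7-cultured pro-B cells it was 59.1%, 59.0% and 88.0%. The overlap of DN and DP sites was lower than that of shared sites at each level of DN score. In the lowest 25% of the DN list, 82.1% of DN-only sites, 69.7% of DN and DP sites and 99.9% of shared sites held a CTCF peak in either list. In the highest 25% the shares were 82.8% of 29 DN and DP sites (64.2% to 94.2%) and 100% of 2376 shared sites, and DN only had 1 site there. Only 143 of all 9495 DN sites held no CTCF peak in either list, and 132 of them were sites without a pre-B peak, 24 DN only and 108 DN and DP.

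**Figure D3:**
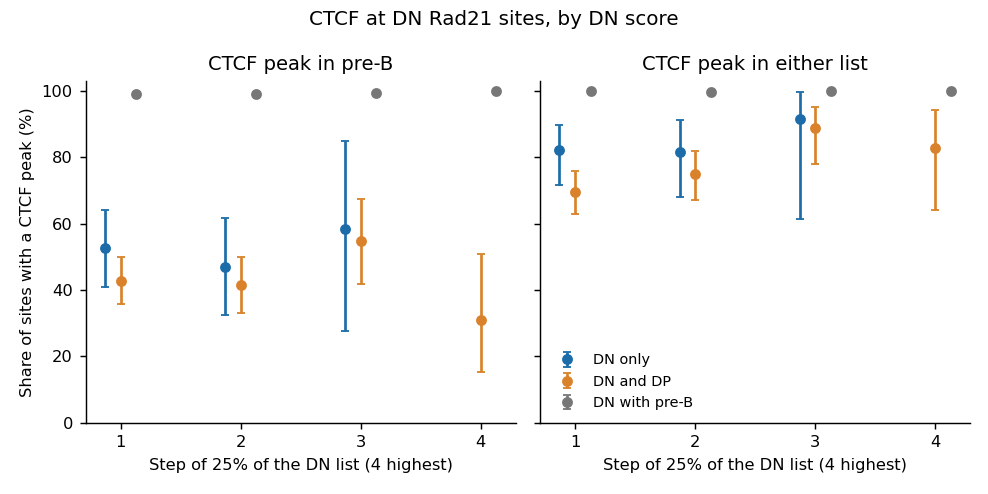
Share of DN Rad21 sites with a CTCF peak (y axis, %) in pre-B cells (left) or in either CTCF list (right), in 4 equal steps of the DN list by score (x axis, 4 highest). Points are shares, bars exact 95% intervals, and the highest step of DN only is left out because it holds 1 site. Shared DN sites stay at 99% or above, and sites without a pre-B peak are lower in each step shown.

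The sequence followed the CTCF peaks. The CTCF consensus, searched on both strands with at most 2 mismatches in the 300 bp around the middle of the DN peak, was found in 38.6% of DN-only sites (30.5% to 47.2%), 30.1% of DN and DP sites (25.8% to 34.7%), 57.4% of shared DN sites and 55.9% of all DN sites. Windows 2000 bp away, towards higher coordinates, held it in 0.714%, 2.78% and 4.73%. Among the sites without a pre-B peak it was found in 39.5% of those with a CTCF peak and in 7.58% of those without (3.69% to 13.5%). The share depends on the mismatch limit and was 14.3% for DN only and 8.80% for DN and DP with at most 1 mismatch.

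Words of factors that act in early T cells were found at levels near those of the windows away, apart from E-box words in DN and DP sites. The words searched on both strands were TGTGGT for RUNX, AGGAAG for ETS, CTTTGA for TCF/LEF, AGATAA for GATA and CAGCTG or CAGGTG for E-box proteins, and matches of different words may overlap each other and the CTCF match. In DN-only sites, RUNX words were found in 24.3% and in 23.6% of the windows 2000 bp away, ETS in 24.3% and 31.4%, TCF/LEF in 24.3% and 30%, and GATA in 18.6% and 17.1%. In DN and DP sites these shares were 22.9% and 26.6% for RUNX, 36.8% and 33.8% for ETS, 17.6% and 18.8% for TCF/LEF, and 13.2% and 18.5% for GATA. The intervals at the peak and away overlapped for each of these. ETS words were found in fewer DN-only sites (17.4% to 32.2%) than DN and DP sites (32.2% to 41.5%), with intervals that meet at their ends. E-box words were found in 38.6% of DN-only sites (30.5% to 47.2%) and 27.1% of their windows away (20% to 35.3%), and in 44.4% of DN and DP sites (39.7% to 49.3%) and 31.7% of theirs (27.3% to 36.3%). In shared DN sites they were found in 41.4% and 32.5%, so a higher E-box share at the peak was not particular to sites without a pre-B peak. The E-box intervals at the peak and away overlapped in DN-only sites and not in DN and DP sites. Over all DN sites the shares were 22.6% for RUNX, 33.8% for ETS, 18.9% for TCF/LEF, 12.3% for GATA and 41.5% for E-box. Median GC content was 49.0% at the sites without a pre-B peak and 43.8% in the windows away, and its part in these shares was not tested.

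Tandem repeats were more frequent at the DN and DP sites with no CTCF peak in either B-lineage list. A stretch of 30 bases or more that repeated a unit of 1 to 6 bases lay in the 300 bp window of 27 of the 132 sites without a CTCF peak (20.5%, 13.9% to 28.3%) and of 19 of the 440 with one (4.32%, 2.62% to 6.66%). Among DN and DP sites the counts were 26 of 108 without CTCF (24.1%, 16.4% to 33.3%) and 14 of 324 with it (4.32%). DN-only sites had 1 of 24 (4.17%, 0.105% to 21.1%) and 5 of 116 (4.31%), and the interval of the 24 sites overlapped that of the 108, so whether the classes differ was not shown. Such a stretch lay in 3.56% of shared DN sites and in 4.04% of those in the lowest 25% of the DN list. Windows 2000 bp to either side of the 132 sites held such a stretch in 4.92% (2.65% to 8.27%). The repeats near Scel and in Bach2 printed above are among the 27. Copies elsewhere in the genome were counted with words of 32 bases. More than 50% of the words of a window occurred at more than 1 place in 31 of the 432 DN and DP sites (7.18%), 0 of the 140 DN-only sites (interval 0% to 2.60%) and 2.14% of shared DN sites. At 12 of the 31 sites, more than 50% of the words occurred at more than 3 places, the number to which the mapping was limited. Read length is not given in the sources used here, and reads longer than these words would have fewer copies. Whether repeated sequence bore on the peak calls was not tested. With the 70 sites that had either kind of repeat left out, a CTCF peak in either list lay at 79.6% of DN and DP sites.

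**Figure D4:**
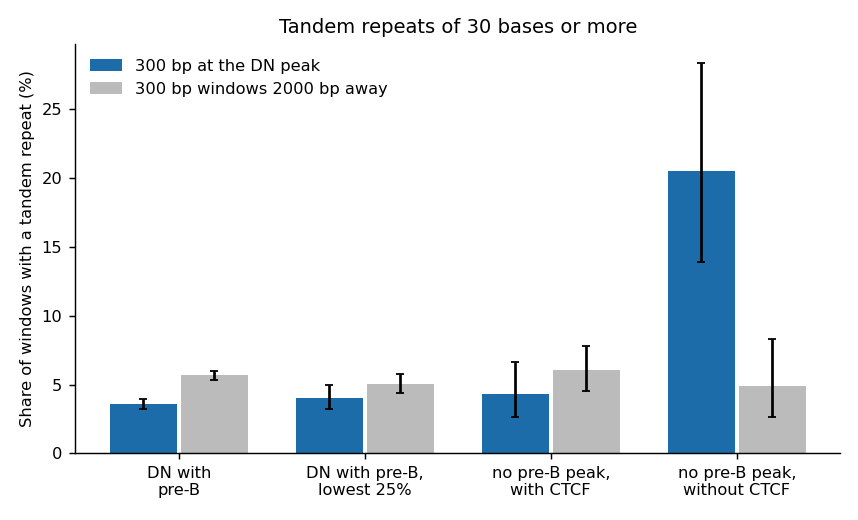
Share of 300 bp windows (y axis, %) with a tandem repeat of 30 bases or more, at the DN peak (blue) and 2000 bp to either side (grey). Groups are shared DN sites, those in the lowest 25% of the DN list, and sites without a pre-B peak with and without a CTCF peak. Bars carry exact 95% intervals, and the last group stands at 20.5% at the peak and 4.92% away.

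The place of the sites in genes was compared next. A site within 1 kb of the start of a protein-coding gene was called a promoter site. Promoters held 10 of the 140 DN-only sites (7.14%, 3.48% to 12.7%), 64 of the 432 DN and DP sites (14.8%, 11.6% to 18.5%) and 11.4% of shared DN sites, and the intervals of the DN-only and the DN and DP sites overlapped. Among DN and DP sites, 18.5% of those with CTCF (14.4% to 23.2%) and 3.70% of those without (1.02% to 9.21%) were at promoters. Exons outside promoters held 1 DN-only site (0.714%, 0.0181% to 3.92%), 6.48% of DN and DP sites (4.35% to 9.23%) and 11.2% of shared sites. Introns held 40% of DN-only (31.8% to 48.6%), 31.2% of DN and DP (26.9% to 35.9%) and 27.5% of shared sites. Sites outside genes made up 52.1% (43.5% to 60.7%), 47.5% (42.7% to 52.3%) and 50%. Only protein-coding genes were counted, so a site that overlaps a TCR V segment such as Trav9d-1 is among the sites outside genes. Exons were the place where the intervals of DN-only and DN and DP sites did not overlap. More than 100 kb from any start of a protein-coding gene lay 27.1% of DN-only sites, 21.5% of DN and DP sites and 7.58% of shared sites. For DN and DP sites without CTCF this share was 38.0%. The median distance to the nearest pre-B Rad21 peak was 33656 bp, 18 sites were within 1 kb of one, and 140 were more than 100 kb away.

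The DN-only sites of highest DN score were led by the promoter of Adra1b, an adrenergic receptor gene. It ranked at 89.7% in DN, had no CTCF peak in pre-B cells and had one at 75.3% of the IL7 list. Others of the 12 were intronic sites of Dtd1 (72.3%), Csmd1 (71.1%), Prdm16 (62.4%) and Sez6l (62.1%). Sites outside genes were nearest to BC067068 (62.4%), Kcnj2 (58.4%), the trypsin-like gene 2210010C04Rik within TCRβ (57.8%), Rpl21-ps14 (53.6%), Hrh4 (52.9%) and Tmem196 (51.7%). All but the site near Tmem196 overlapped a CTCF peak in the IL7 list. None of the 12 lay within 10 kb of a gene of the fixed lists, and 6 of them were outside genes.

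The 12 DN and DP sites of highest DN score ranked from 86.9% to 98.7% in DN, and 11 of them lay outside genes. The first was in an intron of Ccdc60, at 98.7% in DN and 89.9% in DP, and the second, near Scel, stood at 98.0% and 89.2%. Sites near 4922501L14Rik, at 97% in DN and 98.8% in DP, near Bmp7, at 92.1% and 99.2%, and near Asb1, at 86.9% and 99.1%, were among the highest of both lists. Sites near Gm10295, at 93.4% in DN and 40% in DP, and near Slc45a1, at 88.3% and 46.2%, ranked high in DN and lower in DP. The others were near Samd9l (94.2% and 92.9%), Gm10650 (91.7% and 66.3%), Pxmp3 (89.7% and 71.7%), 3110018I06Rik in the region downstream of Bcl11b (87.4% and 99.7%) and March3 (87.1% and 78.4%). A CTCF peak in either list lay at 10 of the 12, all but the sites near Scel and March3, and in pre-B cells at 2.

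Among the 74 promoter sites, a few are named here that were picked after their values were seen. They do not stand for the 74, which also held the promoters of Lamc3, Adamts17, Tbx3 and Cbln2. Cd96, a receptor of T and NK cells, stood at 81.9% in DN and 94.9% in DP, and Plcg1, a phospholipase downstream of the T cell receptor, at 50.6% and 80.9%. Actn1, which crosslinks actin, stood at 21.6% and 98.7%. Of the 64 DN and DP promoters, the 4 without CTCF were those of Olfr312, Dapk1, Notch2 and Etv6. The Notch2 site stood at 11.6% in DN and 62.5% in DP, and the Etv6 site, at an ETS repressor gene, at 21.7% and 28.4%. The 1 DN-only promoter without CTCF was that of Cish, a suppressor of cytokine signalling, at 6.82% in DN.

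Few genes of the fixed lists had such a site within 10 kb. Of 100 list genes on chromosomes 1 to 19, 5 (5%) had one, beside 1.81% of all protein-coding genes, while 59 had a DN site of any kind, beside 31.3% of all. Among 22 T-lineage transcription factor and Notch pathway genes, with Notch1 and Notch3 and without Notch2, these were Bcl11b, required for T cell commitment, and Tox, required for CD4 T cell development. Among 14 progenitor and DN-stage genes the gene was Kit, the receptor of stem cell factor, and among 19 B-lineage genes they were Ebf1 and Bach2. No gene had one among the 19 TCR and coreceptor genes, 11 of which had a shared DN site within 10 kb, the 11 homing and cytokine receptor genes or the 15 marker genes of other cell types. With Rad21 lists of equal length the count was 17 of 100 genes, beside 10.9% of all protein-coding genes. With the lists as deposited and a reach of 50 kb it was 9, beside 3.72% of all.

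The T-lineage and progenitor sites were at promoters, except for 1 upstream of Bcl11b, and ranked high in DP. The Bcl11b promoter site stood at 73.3% in DN and 94.7% in DP, and a second site 2281 bp upstream of the start at 67.1% and 90%. Both had a CTCF peak in IL7-cultured pro-B cells, at 62.6% and 39.9% of that list, and none in pre-B cells. The Tox site stood at 46.8% in DN and 79.2% in DP, with CTCF at 27.9% of the pre-B and 60.4% of the IL7 list. The Kit promoter site stood at 42.0% and 74.5%, with CTCF at 11.4% and 72.0%. The sites in B-lineage genes were intronic and lower. The Ebf1 site was at 0.186% in DN and 29.5% in DP, without CTCF, and lay 146 bp from a pre-B peak. The repeat site in Bach2 stood at 21.9% in DN and 46.2% in DP, without CTCF, and a DN-only site in the same gene at 30.5%, with CTCF at 43.3% of the IL7 list.

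At 50 kb, Gata3, Flt3, Itgae and Hba-a1 were added. The site 28985 bp from Gata3, a master regulator of T cell development, stood at 83.2% in DN and 85.8% in DP. The site 14804 bp from Flt3, a progenitor receptor gene, stood at 9.90% and 86.3%. Neither had a CTCF peak in either list. The site 18239 bp from Itgae stood at 29.0% and 38.6%, and the site 35915 bp from Hba-a1, a globin gene, at 36.2% and 60.7%.

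Downstream of Bcl11b a long gene-poor region up to Vrk1 is known to hold a distal enhancer of the gene. From Vrk1 to 5 kb upstream of Bcl11b there were 108 merged Rad21 sites. Of these, 101 were DP only, 6 were DN and DP and 1 was held by all 3. Over all merged Rad21 sites these classes made up 33.6%, 0.95% and 18.8%. The site 917 kb downstream of the start stood at 87.4% in DN and 99.7% in DP, and the site 885 kb downstream at 85.9% and 99.9%, the latter without CTCF. The sites at 1710 kb and 1624 kb stood at 82.8% and 21.0% in DN and at 77.4% and 96.4% in DP. No CTCF peak of pre-B cells lay at any of the 6, and 4 of them had one in IL7-cultured pro-B cells.

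**Figure D5:**
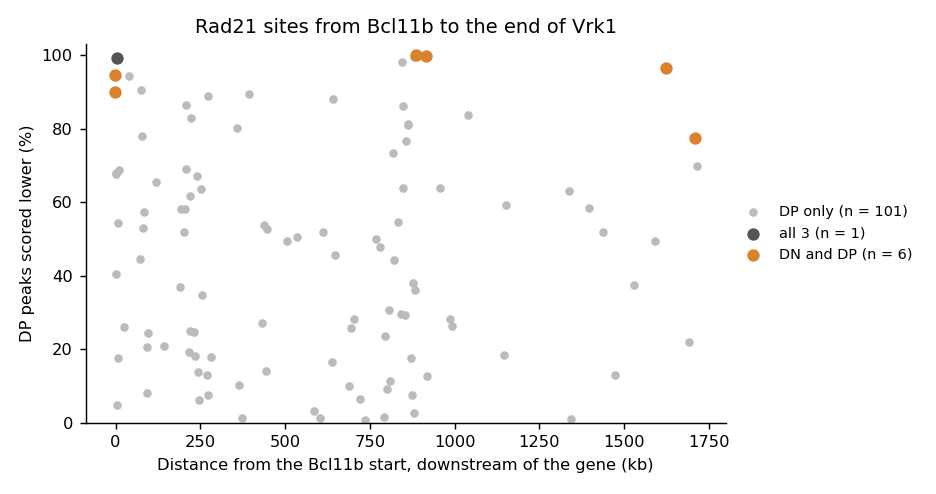
Rad21 sites between Bcl11b and Vrk1, by distance downstream of the Bcl11b start (x axis, kb) and by the percentage of DP peaks that scored lower (y axis). Grey points are 101 DP-only sites, orange points the 6 DN and DP sites without a pre-B peak, and the dark point the site held by all 3. The orange points at 885 kb and 917 kb are at 99.9% and 99.7%.

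In the antigen receptor loci the sites lay in TCRα/δ and TCRβ. They made up 12 of 36 DN sites in TCRα/δ (33.3%) and 4 of 10 in TCRβ (40%), beside 6.02% of all DN sites. With Rad21 lists of equal length the counts were 31 of 36 and 10 of 10, beside 33% of all DN sites. None was found among the 22 DN sites of Igh, the 3 of TCRγ or the 2 of Igκ, and Igλ held no DN site. All 12 TCRα/δ sites overlapped CTCF peaks of both lists, and 11 were DN and DP. Their DN ranks ran from 0.186%, for the DN-only site 19114 bp from Trav2, to 73.5% near Trav14-2, and their DP ranks from 55.0% to 88.2%. Of the 12, 6 formed sets that shared more than 20% of their words of 36 bases. The sites at Trav11d (chr14:53443511-53444233) and at Gm10908 (chr14:54138457-54139179) shared 100% of them and had the same DN score, 133.27, and the same DP rank, 88.2%. Their middle 100 bases, at chr14:53443803-53443902 and chr14:54138749-54138848, are printed to show this and were identical in all 100.
Trav11d: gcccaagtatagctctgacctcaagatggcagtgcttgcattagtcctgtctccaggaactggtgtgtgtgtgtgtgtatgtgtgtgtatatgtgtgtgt
Gm10908: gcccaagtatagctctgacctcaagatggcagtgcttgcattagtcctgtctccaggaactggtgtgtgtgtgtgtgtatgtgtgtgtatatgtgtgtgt

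A read from such a stretch matches both places equally, and reads that mapped to up to 3 places were kept, so these 2 sites cannot be told apart. In TCRβ, 5′PC stood at 37.7% in DN and 95.6% in DP, with no CTCF peak in pre-B cells and one at 15.9% of the IL7 list. The paper reports CTCF and cohesin at 5′PC mainly in DN and DP thymocytes. The DN-only site 898 bp from Trbv5 stood at 57.8% in DN with CTCF at 5.42% of the pre-B and 55.0% of the IL7 list. The site near Trbv4 stood at 19.9% and 3.50%, and the site at Trbv23 at 34.2% and 59.0%, the latter without CTCF in pre-B cells.

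At the edge of the rule, the sites nearest to a pre-B Rad21 peak were 1 near Cnot10, 56 bp away, at 28.1% in DN, and the Ebf1 site, 146 bp away. Just outside it, the smallest overlaps between a DN and a pre-B peak were 8 bp at Zmiz1, at 39.7% in DN, and 55 bp at Nrip1, at 26.0%. A further 2 DN sites were joined to a pre-B peak only through a DP peak and so were left out. With each Rad21 list cut to the length of the DN list, 3132 DN sites had no pre-B peak, so the count rests on the pre-B list as deposited.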

How the data were processed

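Peak lists of 5 ChIP-seq libraries were used. The authors removed duplicate reads, aligned reads to mm9 with Bowtie (2 mismatches, up to 3 places) and called peaks against input with MACS 1.4.2, and the deposited score of each peak comes from the MACS p-value. The Bowtie version in the submitters' processing notes is 0.12.9, and the methods name another. Depth is unknown, since no read numbers were given. Starts are 1-based. The members, gene lists and tests were chosen with earlier results of these data known. Named sites were the 12 of highest DN score in each class, those within 10 kb of a list gene or in an antigen receptor locus, and those at the edges of the rule. Sites within 50 kb of a list gene, sites downstream of Bcl11b and the picked promoters were named in addition to these. A named site is not reported here. Genes are those of GENCODE on mm9, and sequences were read from the same build. Merging, motif and repeat searches were tested on simulated data. Alternatives were scores of at least 100, lists of equal length, 50% overlap, a gap of 1 kb, chromosome X, other gene and promoter distances and other motif limits. The repeat search and the CTCF lists of equal length were added after the data had been seen. Tools were samtools 1.23.1, pysam 0.24.0, scipy 1.17.1, matplotlib 3.10.9, numpy 2.4.6 and Python 3.11.15.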

Additional observations from a re-analysis of the deposited data

How the results depend on the processing

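No paired analysis was possible because each condition had 1 library and no test was run. Of 115 recomputed values, 80 stayed within 1.5 times the count or within the interval of the share or median, and 35 moved beyond it. An overlap of 50%, a gap of 1 kb to pre-B peaks, chromosome X and the whole DN peak as motif window moved none.

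Rad21 lists of equal length, which shorten the pre-B and DP lists and so by construction leave more DN sites without a pre-B peak, gave 3132 sites, 1943 DN only and 1189 DN and DP. A CTCF peak in either list then lay at 95.1%, 96.0% and, for shared DN sites, 100%, and in pre-B cells at 87.3%, 89.8% and 100%. For DN and DP sites the median rank became 41.0% in DN and 42.9% in DP. The counts became 31 in TCRα/δ, 10 in TCRβ and 17 list genes. With the lists as deposited, a reach of 50 kb gave 9 list genes. With scores under 100 left out, 79.2% of DN and DP sites held CTCF in either list and 52.9% in pre-B cells. CTCF lists of equal length gave 70.0% for DN only, 59.3% for DN and DP and 99.6% for shared DN sites. Without repeated sites the DN and DP share was 79.6%. At most 1 mismatch gave the CTCF consensus in 14.3% of DN-only and 8.80% of DN and DP sites, and promoters of 2 kb held 19% of DN and DP sites. A share over few sites is loose, and an uncalled peak is no evidence of absence at an unknown depth.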

Other observations

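The 572 sites were spread over all 19 chromosomes, from 3.97% of DN sites on chromosome 19 to 8.19% on chromosome 18. When sites within 100 kb of each other were joined, 487 stood alone, 31 were pairs, 6 were groups of 3 and 1 was a group of 5 in TCRα/δ. DN-only sites lay 59702 bp at the median from the nearest DP Rad21 peak, and 26 of the 140 were within 10 kb of one.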
